A study of Mus musculus with 18 samples.

Results

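The Toll-like receptors and their LPS co-receptors were followed in mouse macrophages treated with a St John's wort fraction or with 4 of its compounds, each with and without lipopolysaccharide (LPS). The group comprised 10 genes chosen by symbol: the receptor genes Tlr1, Tlr2, Tlr3, Tlr4, Tlr6, Tlr7, Tlr9 and Tlr13, and the co-receptor genes Cd14 and Ly96. The array annotation tied 16 probe sets to them, and these genes are 10 of the 18193 with a probe set of their own. All 10 were among the 11547 genes tested, and 15 of the 16 probe sets passed the filter on low signals. The exception was the Tlr4 probe set 1430695_at, which reached the array median on 0 of 18 arrays.

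Toll-like receptors are membrane proteins with which macrophages and other innate immune cells sense conserved molecules of microbes. Those at the cell surface bind mainly bacterial lipids and lipoproteins, and those in endosomes bind nucleic acids. Bound receptors signal through adapter proteins such as Myd88 and Ticam1, which lead to activation of NF-kB and interferon regulatory factors and to transcription of cytokine genes. LPS, a glycolipid of the outer membrane of Gram-negative bacteria, is handed by Cd14 to the complex of Tlr4 with Ly96.

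The cells were RAW264.7, a transformed macrophage-like mouse line, so all groups share 1 line and its transformed state. Every culture was handled in the dark, then exposed to ambient light for 30 min, over a treatment of 8 h. Vehicle cells received 0.1% DMSO. Fraction-treated cells received 10 ug/mL of a sub-fraction of Hypericum perforatum. Cells given the 4-component system (4CS) received quercetin at 0.08 uM, pseudohypericin at 0.03 uM, amentoflavone at 0.07 uM and chlorogenic acid at 0.2 uM. Each of these was run without LPS and with LPS at 10 ug/mL, giving 6 groups of 3 arrays. DMSO is stated for the vehicle cells alone, and whether the fraction and 4CS were given in DMSO, or LPS was present for all of the 8 h, is not stated. No label tells separate cultures from repeat samples of 1 culture, so p-values here cover only how these samples vary, which can be partly technical.

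Signals are linear MAS5 intensities from Affymetrix Mouse Genome 430 2.0 arrays, scaled by the authors so that every array had the same trimmed mean. Array medians lay between 52.1 and 66.8, and arrays of 1 group correlated at 0.970 to 0.979. Of 8 macrophage markers, 8 were at or above the array median on all 18 arrays, with summed signals of 52619.7 to 75026. Of 32 markers of other cell types 9 passed the filter, 0 of them on all 18 arrays, and those 9 summed to between 299.7 and 625. In bulk RNA, a lower signal can come from fewer cells of a type or from less RNA per cell, and these cannot be told apart.

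The stretches just upstream of 5 genes that were called in 1 or more comparisons are shown as context for their transcript levels. RefSeq promoter windows (build GRCm38.p6) were used for 6 of the 10 genes, 8 windows in all. They are given as the 250 bases before the annotated start, 5′ to 3′ on the strand of the gene. Capitals mark matches, on either strand, to 5 motifs: NF-kB (GGG and CC with any 5 bases between them), the interferon response element (GAAA and GAAA with any 2 bases between them), PU.1 (GAGGAAGT), AP-1 (TGANTCA) and the cyclic AMP response element (TGACGTCA).
Tlr2, chr3:83841609-83841858, minus strand: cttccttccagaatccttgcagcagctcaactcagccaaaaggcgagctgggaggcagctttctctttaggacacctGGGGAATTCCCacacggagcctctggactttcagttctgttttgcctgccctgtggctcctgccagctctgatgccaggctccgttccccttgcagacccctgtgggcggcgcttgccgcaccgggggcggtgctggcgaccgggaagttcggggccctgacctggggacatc
Tlr3, chr8:45410381-45410630, minus strand: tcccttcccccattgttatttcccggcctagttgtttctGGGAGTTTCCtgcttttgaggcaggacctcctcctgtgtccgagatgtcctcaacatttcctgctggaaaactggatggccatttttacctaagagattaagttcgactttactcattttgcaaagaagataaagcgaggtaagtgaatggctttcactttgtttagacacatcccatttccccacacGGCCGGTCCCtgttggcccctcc
Tlr1, chr5:64933559-64933808, minus strand: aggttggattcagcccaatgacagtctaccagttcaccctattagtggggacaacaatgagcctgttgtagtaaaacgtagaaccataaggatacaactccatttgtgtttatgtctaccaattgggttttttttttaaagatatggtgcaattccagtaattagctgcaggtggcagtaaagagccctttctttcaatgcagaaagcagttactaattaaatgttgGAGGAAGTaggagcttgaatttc
Tlr6, chr5:64959167-64959416, minus strand: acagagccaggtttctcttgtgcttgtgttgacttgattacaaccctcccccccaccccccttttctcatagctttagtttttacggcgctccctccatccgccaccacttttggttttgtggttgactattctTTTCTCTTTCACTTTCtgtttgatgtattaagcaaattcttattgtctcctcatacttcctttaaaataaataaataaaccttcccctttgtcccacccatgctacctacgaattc
Tlr13, chrX:106143025-106143274, plus strand: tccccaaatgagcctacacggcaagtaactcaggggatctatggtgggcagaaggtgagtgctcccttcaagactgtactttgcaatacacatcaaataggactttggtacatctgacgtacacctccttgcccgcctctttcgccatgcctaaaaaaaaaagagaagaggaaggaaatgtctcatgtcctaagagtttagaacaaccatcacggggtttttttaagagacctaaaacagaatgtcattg
Tlr2 held 2 overlapping NF-kB matches, whose first bases lay 173 and 172 bases before the start. Tlr3 held NF-kB matches beginning 211 and 23 bases before the start, the latter on the opposite strand. The Tlr1 window held 1 PU.1 match beginning 23 bases before the start, and Tlr6 had 2 overlapping interferon response element matches at 116 and 110 bases. Tlr13 held 0 matches to these 5 motifs. Of the windows not printed, a second Tlr6 start had an NF-kB match 99 bases upstream, Tlr9 had an AP-1 match at 58 bases, and a second Tlr1 start had none. Matches are descriptions of letters: the NF-kB pattern stood in 45.8% of 32851 promoter windows of the same length, the interferon response element in 2.98%, PU.1 in 2.44%, AP-1 in 6.75% and the cyclic AMP response element in 1.55%. Tlr4, Tlr7, Cd14 and Ly96 are named without a sequence.

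LPS alone raised the lipopeptide receptor genes Tlr1, Tlr2 and Tlr6, the double-stranded RNA receptor gene Tlr3 and the co-receptor gene Cd14, and lowered the bacterial RNA receptor gene Tlr13. The widest of these changes was that of Tlr3, at 3.55-fold. Tlr4, whose product is the LPS receptor itself, did not pass the test, nor did Ly96, Tlr7 or Tlr9. Thus 5 of the 10 genes were higher and 1 was lower with LPS in vehicle cells, where 10.1% of all tested genes were called higher and 21.8% lower by limma at an adjusted p under 0.05. The median log2 difference over the 10 genes was 0.32, against -0.07 over all tested genes. The 9 measured markers of other cell types summed to 347 to 387 in vehicle cells and to 461 to 625 with LPS, and the 8 macrophage markers to 52619.7 to 63357 and to 65305 to 71383. Each of those 9 markers reached the array median on only 3 to 9 of the 18 arrays, so their sums come from signals near it. The part of either sum in these differences was not tested.

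**Figure D1:**
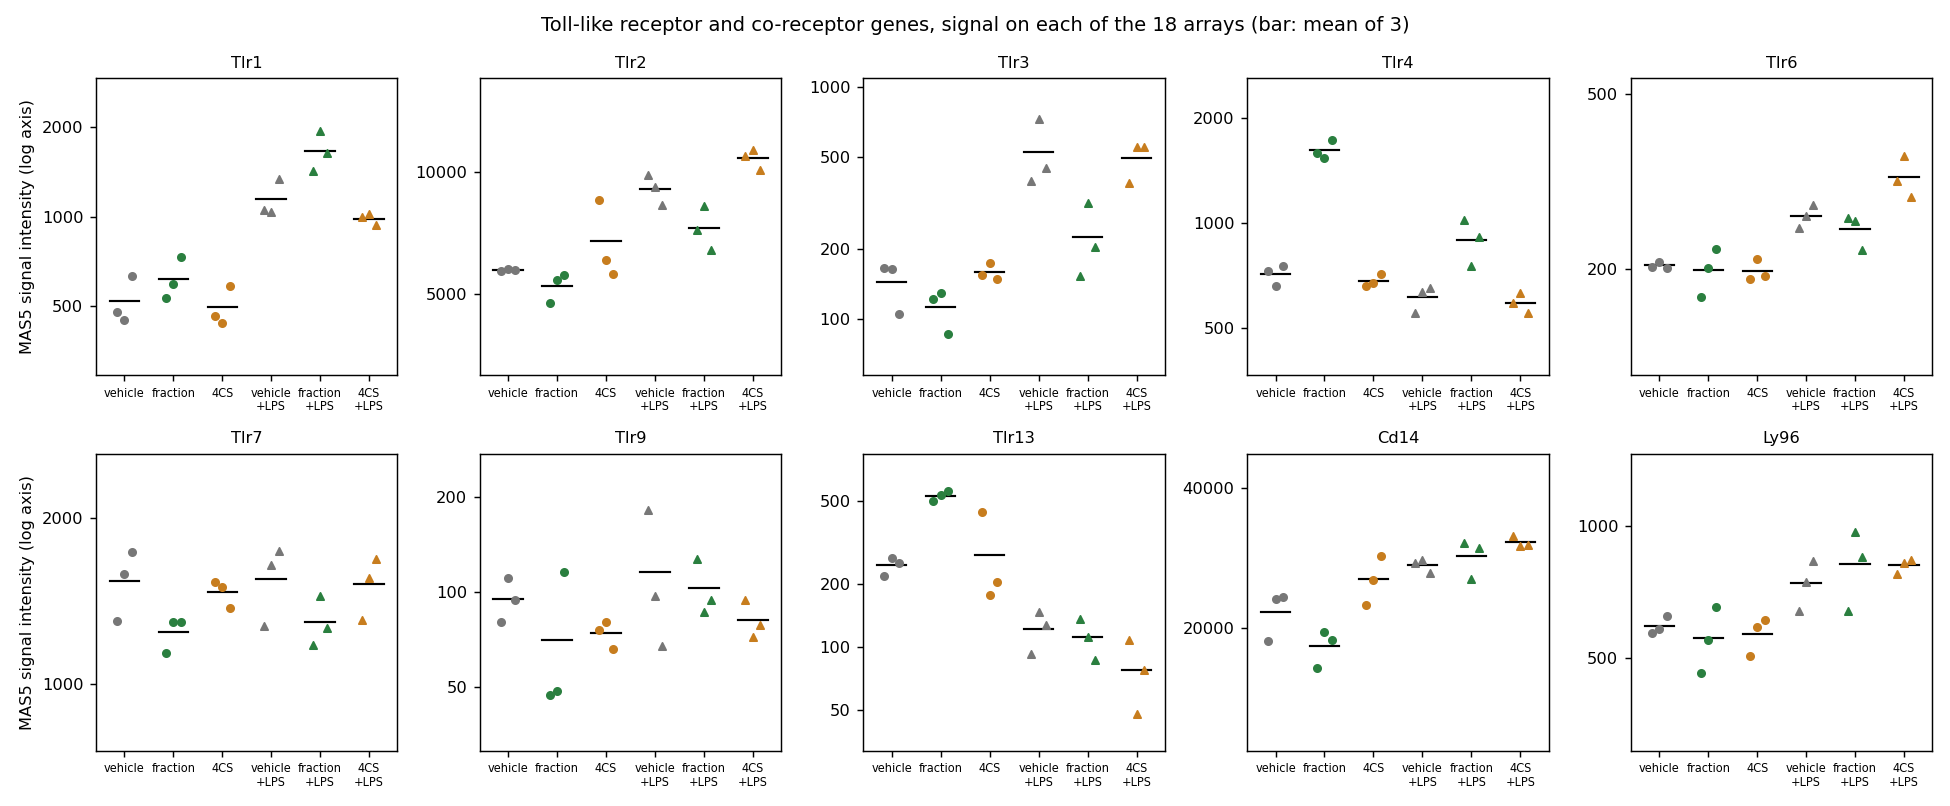
Signal of the 10 genes (MAS5 intensity, log axis, a scale of its own in each panel) on each of the 18 arrays, by group. Circles are arrays without LPS, triangles arrays with LPS, and bars the mean of 3. Tlr4 stands highest in fraction-treated cells without LPS (1540.2 to 1736), and Tlr13 is lower in every LPS group than in the same treatment without LPS.

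Among the genes of the LPS receptor complex, Cd14, a membrane-anchored protein that binds LPS, gave signals of 18739, 23034 and 23338 in vehicle cells and of 27529, 27973 and 26275 with LPS. The groups did not overlap, as was so for 41.5% of all tested genes in this comparison, and the first vehicle array was the lowest. The difference was 1.26-fold (0.34 ± 0.10 on the log2 scale, ± standard error, adjusted p = 0.012), and without that array it was 0.23 with an adjusted p of 0.082. The highest group mean of any tested gene was 36827, and whether a probe set as bright as that of Cd14 still responds in proportion was not tested. Tlr4 gave 731, 659.7 and 753 in vehicle cells and 555, 634 and 652 with LPS. Its arrays with LPS were all lower, but the difference of -0.22 ± 0.11 did not pass (adjusted p = 0.14). Ly96, the soluble partner that completes the LPS binding pocket, averaged 593 ± 28.5 (SD, n = 3) without and 739 ± 96.6 with LPS. Its groups did not overlap either, and its difference of 0.31 ± 0.15 did not pass (adjusted p = 0.12). It passed with the replicate number as a block (0.31, adjusted p = 0.026), quantile normalization (0.47, adjusted p = 0.028), median centring (0.50, adjusted p = 0.015) and without the 6 arrays numbered 1 (0.38, adjusted p = 0.039).

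Of the lipopeptide receptors, Tlr2 pairs with Tlr1 to bind triacylated and with Tlr6 to bind diacylated lipopeptides. Tlr1 gave 478, 449 and 633 in vehicle cells and 1052, 1037 and 1343 with LPS, with every LPS array above every vehicle array. It rose 2.21-fold (1.14 ± 0.16, adjusted p = 1.3e-05). Tlr2 gave 5686, 5749.7 and 5724 in vehicle cells and 9822, 9149 and 8262 with LPS. The vehicle arrays were close together, and all LPS arrays were higher. It rose 1.58-fold (0.66 ± 0.12, adjusted p = 3.4e-04). Tlr6 moved less, from 204 ± 3.26 (SD, n = 3) to 263 ± 16.2, a rise of 1.29-fold (0.37 ± 0.14, adjusted p = 0.043). That call is a marginal one: it was lost in 10 of 28 alternatives, with adjusted p-values up to 0.13, among them each vehicle array left out, LPS array 2 or LPS array 3 of the vehicle cells left out (0.10 and 0.13), and 3 arrays of other groups.

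Of the nucleic acid receptors, Tlr3, which binds double-stranded RNA, gave 165, 164 and 105 in vehicle cells and 393, 727 and 448 with LPS. All LPS arrays were higher, and LPS array 2 was the highest. The rise was 3.55-fold (1.83 ± 0.27, adjusted p = 3.0e-05). Tlr13, a mouse receptor for bacterial ribosomal RNA, gave 219, 268 and 254 in vehicle cells and 92.4, 147 and 128 with LPS. It ran opposite to the others, each LPS array lying below each vehicle array. It fell 2.05-fold (-1.03 ± 0.31, adjusted p = 0.013), and without LPS array 1 the difference was -0.84 with an adjusted p of 0.060. Tlr7, which binds single-stranded RNA, averaged 1538 ± 220.4 (SD, n = 3) without and 1552 ± 244 with LPS, a log2 difference of 0.01 with a 95% interval of -0.26 to 0.28. Tlr9, a receptor for unmethylated CpG DNA, gave 0.17 with an interval of -0.58 to 0.92, so that a change of the size seen in Tlr2 lies within its interval. Tlr9 lay under the array median on 3 of the 18 arrays.

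The second Tlr3 probe set, 1422781_at, gave the same log2 difference with LPS in vehicle cells, 1.83 (adjusted p = 4.6e-04). The probe set that stands for the gene, 1422782_s_at, is of a kind whose probes can match several transcripts. The other Tlr7 probe sets had log2 differences of -0.51 (1419848_x_at, adjusted p = 0.11) and -0.23 (1449640_at, 0.48), and so differed in sign from the brightest 1 without passing. Scaling bears on these values: centring each array on its median raised every LPS difference, since it moved the median of all genes by 0.19 in vehicle and fraction-treated cells and by 0.13 in 4CS-treated cells. No member changed its called direction under that or any other alternative.

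In fraction-treated cells LPS raised Tlr1, Tlr2, Tlr3, Cd14 and Ly96 and lowered Tlr4 and Tlr13, 5 genes higher and 2 lower against 11.5% and 25.8% of all tested genes. In 4CS-treated cells it raised Tlr1, Tlr2, Tlr3, Tlr6, Cd14 and Ly96 and lowered Tlr13, 6 genes higher and 1 lower against 8.32% and 16.3%. The medians over the 10 genes were 0.51 and 0.39, against -0.11 and -0.07 over all tested genes. These LPS effects rest on separate arrays in each treatment.

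Under the fraction, Tlr4 gave 1595, 1540.2 and 1736 without LPS and 1023, 757 and 915 with it. The arrays with LPS were all lower, a fall of 1.82-fold (-0.86 ± 0.11, adjusted p = 4.2e-06). Tlr4 probe set 1418163_at fell by less, at -0.59 (adjusted p = 0.0025), and 1442827_at, at -0.69, did not pass (adjusted p = 0.12). Tlr13 gave 500.3, 537 and 561 without LPS and 136, 112 and 86.4 with it, far apart from each other. It fell 4.85-fold (-2.28 ± 0.31, adjusted p = 7.9e-06), and in 4CS-treated cells it fell 3.44-fold (-1.78 ± 0.31, adjusted p = 2.3e-04). In 4CS-treated cells its arrays without LPS were uneven, at 445, 178 and 206, and those with LPS were at 108, 47.9 and 77.7. The groups did not overlap there either. With LPS, 49.1% of all tested genes had no overlap under the fraction and 40.3% had none under 4CS.

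Tlr1 rose 2.7-fold with LPS under the fraction (1.43 ± 0.16, adjusted p = 6.7e-07) and 2-fold under 4CS (1.00 ± 0.16, adjusted p = 8.7e-05). Tlr2 rose 1.38-fold (0.47 ± 0.12, adjusted p = 0.0050) and 1.63-fold (0.70 ± 0.12, adjusted p = 2.7e-04). Tlr3 rose 1.93-fold under the fraction (0.95 ± 0.27, adjusted p = 0.0082) and 3.09-fold under 4CS (1.63 ± 0.27, adjusted p = 1.5e-04). Its fraction arrays with LPS were at 153, 316 and 205, and without array 2 of that group the difference was 0.67 with an adjusted p of 0.064. Tlr6 rose 1.63-fold under 4CS (0.71 ± 0.14, adjusted p = 6.2e-04). Under the fraction its difference was 0.32 ± 0.14 (adjusted p = 0.072). It passed in 4 of 28 alternatives: quantile normalization (0.58, adjusted p = 0.0020), median centring (0.51, adjusted p = 0.0051), no variance trend (0.32, adjusted p = 0.029) and without fraction array 3 (0.40, adjusted p = 0.041).

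Cd14 rose 1.56-fold with LPS under the fraction (0.64 ± 0.10, adjusted p = 3.0e-05), from arrays at 16395, 19609 and 18819 to 30394, 25505 and 29705. Those groups stood clear of each other. Under 4CS it went from 22469, 25299.5 and 28587 to 31456, 29945 and 30163, a rise of 1.2-fold (0.27 ± 0.10, adjusted p = 0.049). That call stood at the threshold and was lost in 19 of 29 alternatives, with a log2 difference of 0.18 without 4CS array 1 (adjusted p = 0.23). It was lost with each array left out in turn except vehicle arrays 1 and 3, fraction array 1, 4CS array 3 and fraction LPS array 2. Ly96 rose 1.47-fold under the fraction (0.55 ± 0.15, adjusted p = 0.0052) and 1.43-fold under 4CS (0.52 ± 0.15, adjusted p = 0.013). Its arrays under the fraction overlapped, and without 4CS array 1 the difference under 4CS was 0.44 with an adjusted p of 0.063. Tlr7 and Tlr9 passed in neither treatment, with log2 differences of 0.06 and 0.66 under the fraction and of 0.04 and 0.13 under 4CS. Without fraction array 3 the Tlr9 value under the fraction was 1.09 (adjusted p = 0.021).

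**Figure D2:**
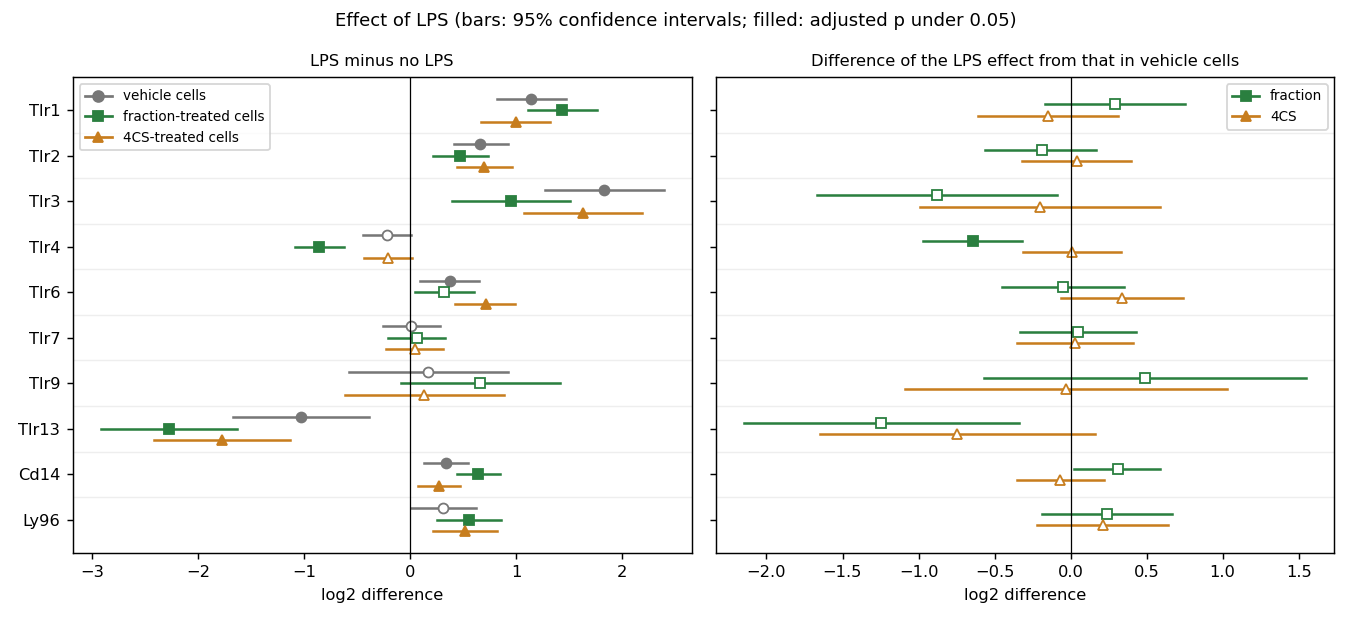
Left, log2 difference of LPS minus no LPS for each gene in vehicle, fraction-treated and 4CS-treated cells; right, difference of that LPS effect from the effect in vehicle cells. Points are estimates from 3 arrays per group, bars are 95% confidence intervals, and filled points passed an adjusted p of 0.05; in the right panel Tlr4 under the fraction passed (-0.64).

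Whether the fraction altered the LPS response was tested as an interaction, which uses the vehicle arrays too. Of the 10 genes 1 passed, Tlr4, against 2.14% of all tested genes. Its LPS effect was lower by 0.64 on the log2 scale under the fraction than in vehicle cells (-0.64 ± 0.15, adjusted p = 0.032): Tlr4 fell from 1624 ± 101 to 898 ± 133 under the fraction and went from 715 ± 48.7 to 614 ± 51.8 in vehicle cells (SD, n = 3). The call was lost in 12 of 29 alternatives, with an adjusted p of 0.36 for the mean of the Tlr4 probe sets (-0.47) and of 0.050 to 0.086 with 1 of 10 arrays left out. Those arrays were the vehicle arrays 1, 2 and 3, the fraction arrays 1, 2 and 3, and arrays 2 and 3 of both LPS groups. Tlr13 and Tlr3 had larger estimates with wider errors, -1.25 ± 0.43 (adjusted p = 0.17) and -0.88 ± 0.38 (adjusted p = 0.30), and Cd14 was at 0.31 ± 0.14 (adjusted p = 0.32). The second Tlr3 probe set, 1422781_at, gave -0.55 (adjusted p = 0.71). For 4CS, 0 of the 10 genes passed, against 0% of all tested genes. limma gave 0 members and 412 of all genes at an unadjusted p under 0.05 for that interaction, and no alternative called a member.

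The fraction alone raised Tlr4 and Tlr13 and called no member lower. Tlr4 rose 2.27-fold, from 731, 659.7 and 753 in vehicle cells to 1595, 1540.2 and 1736, the highest Tlr4 signals in the series. The lowest fraction array was above the highest vehicle array by a wide margin (1.18 ± 0.11, adjusted p = 1.2e-07). Tlr13 rose 2.16-fold, from 219, 268 and 254 to 500.3, 537 and 561. These groups were likewise apart (1.11 ± 0.31, adjusted p = 0.0086), as were those of 42.9% of all tested genes. The count of 2 higher and 0 lower stands against 15.9% and 15.3% of all tested genes in the same comparison, and the median over the 10 genes was -0.12 against 0.02.

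The other 8 genes did not pass for the fraction without LPS. Cd14 was lower by 0.25 on the log2 scale, close to the threshold (-0.25 ± 0.10, adjusted p = 0.062), and Tlr7 had -0.30 ± 0.13 (adjusted p = 0.084). Both passed with the replicate number as a block (adjusted p = 0.043 and 0.021) and without vehicle array 1, where the differences were -0.35 and -0.42. Both passed without the 6 arrays numbered 1 (0.031 and 0.026). The other Tlr7 probe sets gave smaller differences, -0.19 (1419848_x_at, adjusted p = 0.59) and -0.05 (1449640_at, 0.9). Cd14 also passed with quantile normalization (-0.37, adjusted p = 1.4e-05), with the 75th percentile filter (0.048) and without 4CS array 1 (0.048) or 3 (0.045). Tlr9 gave -0.56 ± 0.36, with fraction arrays at 47.2, 48.5 and 116. Array 3 was the highest, and without it the difference was -0.98 with an adjusted p of 0.041. Tlr1, Tlr2, Tlr3, Tlr6 and Ly96 had differences between -0.36 and 0.26. The second Tlr3 probe set, 1422781_at, was lower by more, at -0.82 (adjusted p = 0.085). Its mean was 108 in vehicle cells and 61.5 under the fraction, where 2 of 3 arrays reached the array median.

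With LPS present, the fraction raised Tlr1 and Tlr4 relative to vehicle with LPS and lowered Tlr3, 2 genes higher and 1 lower against 11.1% and 12.7% of all tested genes. The median over the 10 genes was -0.08 against -0.02. Tlr3 gave 393, 727 and 448 in vehicle cells with LPS and 153, 316 and 205 in fraction-treated cells with LPS. Every fraction array was lower, a fall of 2.35-fold (-1.23 ± 0.27, adjusted p = 0.0021), and the probe set 1422781_at gave -1.37 (adjusted p = 0.0070). Tlr4 was at 555, 634 and 652 against 1023, 757 and 915. It rose 1.46-fold with no overlap (0.54 ± 0.11, adjusted p = 0.0012), and without the 6 arrays numbered 1 the difference was 0.37 (adjusted p = 0.073). Of all tested genes, 36.1% had no overlap in this comparison.

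Tlr1 was at 1052, 1037 and 1343 against 1421, 1945 and 1639 in the same comparison. It rose 1.46-fold (0.54 ± 0.16, adjusted p = 0.015), without overlap. The call was lost without vehicle LPS array 1 (adjusted p = 0.055), vehicle LPS array 2 (0.065) or fraction LPS array 2 (0.080), with differences of 0.49, 0.48 and 0.43. Tlr2 was at 9822, 9149 and 8262 against 7178, 8259 and 6422. The fraction arrays were all lower, yet the difference did not pass (-0.32 ± 0.12, adjusted p = 0.065), though it did with the replicate block (0.039), without fraction LPS array 2 (-0.42, adjusted p = 0.030) and without 4CS array 1 (0.016) or 3 (0.045). Tlr7 had -0.25 ± 0.13 (adjusted p = 0.17), and -0.39 without vehicle LPS array 1 (0.038). Tlr13, raised by the fraction alone, had a difference of -0.13 ± 0.31 under LPS.

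**Figure D3:**
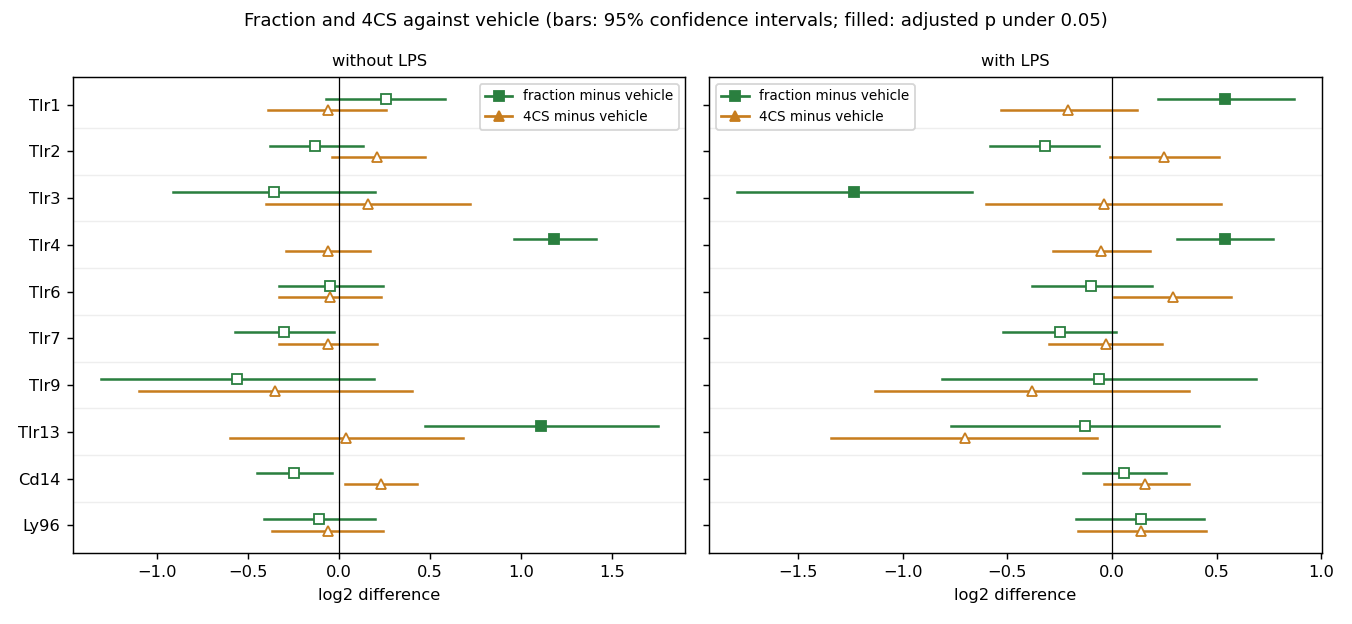
Log2 difference of fraction minus vehicle and of 4CS minus vehicle for each gene, without LPS (left) and with LPS (right). Points are estimates from 3 arrays per group, bars are 95% confidence intervals, and filled points passed an adjusted p of 0.05: Tlr4 and Tlr13 without LPS, and Tlr1, Tlr3 and Tlr4 with LPS, all for the fraction.

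The rise of Tlr4 under the fraction was read by 3 separate probe sets. Probe set 1418163_at gave 454, 484 and 457 in vehicle cells and 891, 931 and 906 in fraction-treated cells, a log2 difference of 0.97 (adjusted p = 2.8e-05). Probe set 1442827_at gave 95, 43.1 and 52 against 237, 169 and 206, a difference of 1.76 (adjusted p = 5.1e-04), with 1 of 3 vehicle arrays at or above the array median. Both had non-overlapping arrays, as had the brightest probe set and 42.9% of all tested genes. With LPS their differences were 0.49 (adjusted p = 0.015) and 1.47 (adjusted p = 0.0032). Neither passed the interaction of fraction and LPS, at -0.48 (adjusted p = 0.29) and -0.29 (0.86). The fourth probe set, 1430695_at, stayed under the array median throughout, at 2.18 to 51.6, and is given no fold.

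**Figure D4:**
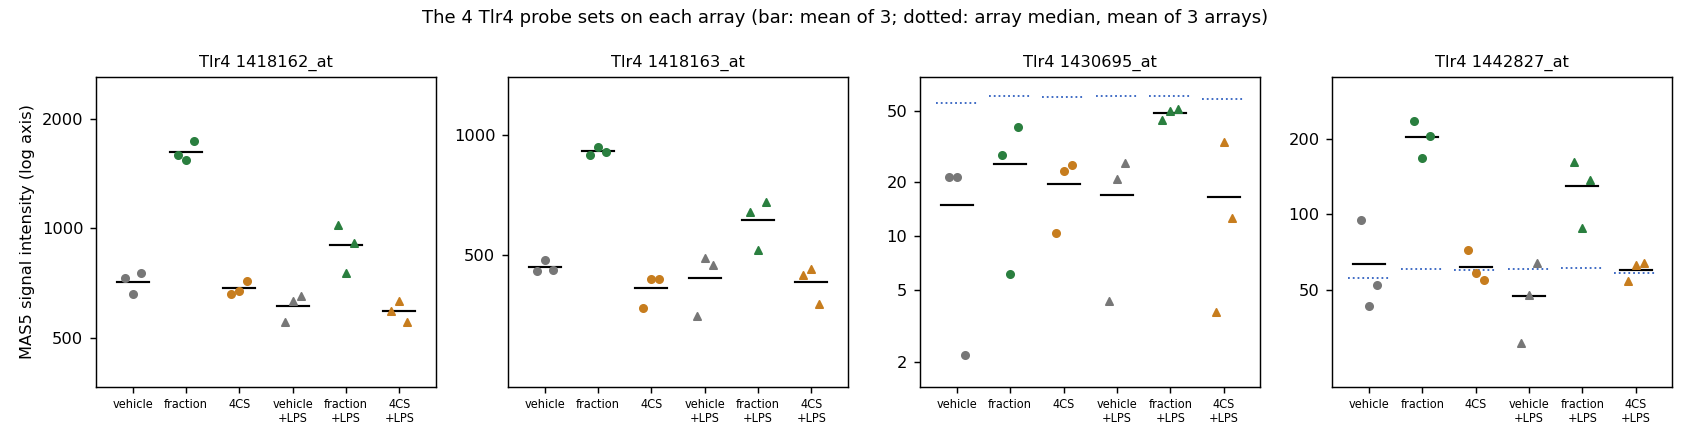
Signal of the 4 Tlr4 probe sets (MAS5 intensity, log axis, a scale of its own in each panel) on each of the 18 arrays. Bars are means of 3 arrays and dotted lines the array medians; 3 probe sets are highest in fraction-treated cells, and 1430695_at lies under the median on every array.

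The 4CS mixture gave no call for any of these genes. Against vehicle, 0 of 10 passed without LPS and 0 of 10 with LPS, where 0% and again 0% of all tested genes passed by limma. At an unadjusted p under 0.05 there were 1 member (Cd14) and 565 genes in all without LPS, and 2 members (Tlr6 and Tlr13) and 934 genes in all with LPS. No alternative called a member, while without vehicle LPS array 1 the calls over all genes with LPS numbered 191. These comparisons use the same vehicle arrays as those of the fraction. For Tlr4 the differences were -0.06 without LPS (95% interval -0.29 to 0.17) and -0.05 with LPS (-0.28 to 0.18), intervals that leave out the 1.18 and 0.54 found for the fraction.

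Tlr13 under 4CS had wider intervals, 0.04 without LPS (-0.60 to 0.68) and -0.70 with LPS (-1.34 to -0.07, adjusted p = 0.59). Tlr3 was at 0.16 without LPS (-0.40 to 0.72) and -0.04 with LPS (-0.60 to 0.52). Tlr6 was at 0.29 with LPS (0.01 to 0.57, adjusted p = 0.60), with arrays of 317, 361 and 291 against 247, 264 and 279. Those arrays did not overlap, nor did those of Tlr1, Tlr2 and Cd14 in that comparison, as was so for 12.6% of all tested genes. A miss of the threshold does not show that 4CS and vehicle acted alike on these genes.

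Set directly against 4CS, the fraction gave higher Tlr4 and Tlr13 and lower Tlr2 and Cd14 without LPS, 2 and 2 genes against 17% and 15.4% of all tested genes. With LPS it gave higher Tlr1 and Tlr4 and lower Tlr2, Tlr3 and Tlr6, 2 and 3 genes against 12% and 16.2%. The medians over the 10 genes were -0.12 and -0.05, against 0.00 and -0.03. Without LPS, Tlr4 differed by 1.25 ± 0.11 (adjusted p = 5.9e-08), Tlr13 by 1.07 ± 0.31 (0.011), Cd14 by -0.48 ± 0.10 (8.7e-04) and Tlr2 by -0.34 ± 0.12 (0.039). The Tlr2 value leaned on 4CS array 1, at 8538 beside 6071 and 5619, and was -0.16 without it (adjusted p = 0.28). The Tlr2 call was lost in 7 of 29 alternatives, also without fraction array 1 (0.15) or 2 (0.063). Without the 6 arrays numbered 1 the Tlr2 difference was -0.09 (adjusted p = 0.62). Quantile normalization (0.06), no filter (0.059) and no variance trend (0.078) lost it too. The Tlr13 call was lost without 4CS array 2 (0.071) or 3 (0.054).

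With LPS, Tlr1 was higher under the fraction by 0.75 ± 0.16 (adjusted p = 0.0012) and Tlr4 by 0.59 ± 0.11 (4.4e-04). Tlr3 had -1.19 ± 0.27 (adjusted p = 0.0023), with fraction arrays of 153, 316 and 205 against 384, 551 and 553 under 4CS. Tlr2 had -0.57 ± 0.12 (adjusted p = 0.0016), with 7178, 8259 and 6422 against 10967, 11316 and 10082. Both pairs of groups were separate, as were those of 42.8% of all tested genes. Tlr6 had -0.39 ± 0.14 (adjusted p = 0.037), and was lost in 7 of 28 alternatives, among them each of 5 arrays left out (adjusted p = 0.050 to 0.17).

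Ordered by group mean, Tlr4 was highest in fraction-treated cells (1624), then in fraction with LPS (898), and the remaining 4 groups lay between 592 and 715 with no called difference among those compared. Tlr13 was highest in fraction-treated cells (533), then in 4CS (276) and vehicle (247), which did not differ beyond their spread, and lay between 77.9 and 123 in the LPS groups. Tlr3 was highest in vehicle with LPS (523) and 4CS with LPS (496), lower in fraction with LPS (224), and between 113 and 159 without LPS. Tlr1 was highest in fraction with LPS (1668), and vehicle with LPS (1144) and 4CS with LPS (983) followed. Over the 6 group means the range on the log2 scale was 2.85 for Tlr13, 2.18 for Tlr3, 1.75 for Tlr1, 1.46 for Tlr4 and 1.04 for Tlr2. It was 0.74 for Cd14, 0.72 for Tlr9, 0.71 for Tlr6, 0.56 for Ly96 and 0.31 for Tlr7.

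For the 3 genes with the widest range, the most similar profiles among the other 11546 tested genes were sought by the root mean square difference of centred log2 group means over the 6 groups. Genes so chosen follow the pattern of the member by construction, so their values only describe that pattern. Nearest to Tlr13 were Nav2 (0.12), Nlrc3 (0.21) and Etv5 (0.22). Nav2 averaged 265 ± 85.8 in vehicle, 457 ± 71.7 in fraction-treated and 98.1 ± 16.1 in vehicle LPS cells (SD, n = 3), which is higher under the fraction and lower with LPS than in vehicle. Nearest to Tlr3 were the interferon-inducible GTPase gene Iigp1 (0.09), Ifit1bl1 (0.09) and Csrnp1 (0.19). Iigp1 averaged 236 ± 38.5 in vehicle LPS cells and 117 ± 45.2 in fraction LPS cells. Nearest to Tlr1 were the kinase gene Plk3 (0.08), the secreted phospholipase gene Pla2g5 (0.09) and the protein C receptor gene Procr (0.09). Plk3 averaged 532 ± 96.7 in vehicle LPS cells and 835 ± 117 in fraction LPS cells.

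Of 38 other genes of the Toll-like receptor pathway, 31 had a probe set of their own and 29 were tested. With LPS in vehicle cells 12 rose and 3 fell, in fraction-treated cells 11 and 3, and in 4CS-treated cells 12 and 2. Of all tested genes, 10.1% were called higher and 21.8% lower in vehicle cells, 11.5% and 25.8% in fraction-treated cells, and 8.32% and 16.3% in 4CS-treated cells. The medians were 0.21, 0.13 and 0.34, against -0.07, -0.11 and -0.07 over all tested genes. The inhibitor gene Tnfaip3, which encodes a deubiquitinase that restrains NF-kB, rose 9.57-fold in vehicle cells (3.26 ± 0.20, adjusted p = 7.0e-10). The kinase gene Ikbke rose 5.95-fold (2.57 ± 0.17) and the ubiquitin ligase gene Peli1 4.33-fold (2.11 ± 0.15). The genes that fell were Irak1, a kinase recruited by Myd88 (-0.71 ± 0.17), Cnpy3, a chaperone of Toll-like receptors (-0.45 ± 0.13), and Ly86, the partner of Cd180 (-0.26 ± 0.08).

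Among the adapters, 3 of 4 tested rose with LPS in vehicle cells, where 10.1% of all tested genes were called higher. Myd88, used by most of the receptors, rose by 0.58 ± 0.12 on the log2 scale (adjusted p = 8.5e-04). Ticam1, used by Tlr3 and Tlr4, rose by 0.89 ± 0.15 (adjusted p = 1.8e-04). Tirap, which bridges Myd88 to Tlr2 and Tlr4, rose by 0.38 ± 0.13 (adjusted p = 0.030). Ticam2 was not among the tested genes. The fraction without LPS raised 3 of the 29 and lowered 4, where 15.9% and 15.3% of all tested genes were called, so neither count stands above that background. Tnfaip3 (0.83 ± 0.20), Irak3, an inhibitory member of its kinase family (0.81 ± 0.26), and Cyld, a deubiquitinase (0.32 ± 0.10), were higher. Tirap (-0.95 ± 0.13, adjusted p = 1.6e-05), Cd180, a surface receptor related to Tlr4 (-0.59 ± 0.21, adjusted p = 0.042), Myd88 (-0.38 ± 0.12, adjusted p = 0.020) and Ly86 (-0.36 ± 0.08) were lower. Myd88 averaged 3036 in vehicle and 2365 in fraction-treated cells, without overlap, as was so for 42.9% of all tested genes.

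With LPS the fraction raised 4 of the 29, Ikbke (0.82 ± 0.17), Irak3 (0.79 ± 0.26), Irak1 (0.51 ± 0.17) and Peli1 (0.45 ± 0.15), and lowered Myd88 (-0.53 ± 0.12, adjusted p = 0.0029) and Ly86 (-0.35 ± 0.08), where 11.1% and 12.7% of all tested genes were called. For 4CS against vehicle 0 of 29 passed without and with LPS, with 1 and 2 at an unadjusted p under 0.05. Against 4CS the fraction raised 6 and lowered 3 without LPS (17% and 15.4% of all tested genes), and raised 4 and lowered 4 with LPS (12% and 16.2%). The interaction of fraction and LPS passed for 1 of the 29, Tirap, and for 2.14% of all tested genes. Tirap averaged 1171 in vehicle, 604 in fraction-treated, 1519 in vehicle LPS and 1303 in fraction LPS cells, and its LPS effect was larger under the fraction (0.72 ± 0.18, adjusted p = 0.044). Tlr5 and Tlr12, the other receptor genes tested, had group means under the array median in vehicle and fraction-treated cells with and without LPS, and passed in no comparison.

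**Figure D5:**
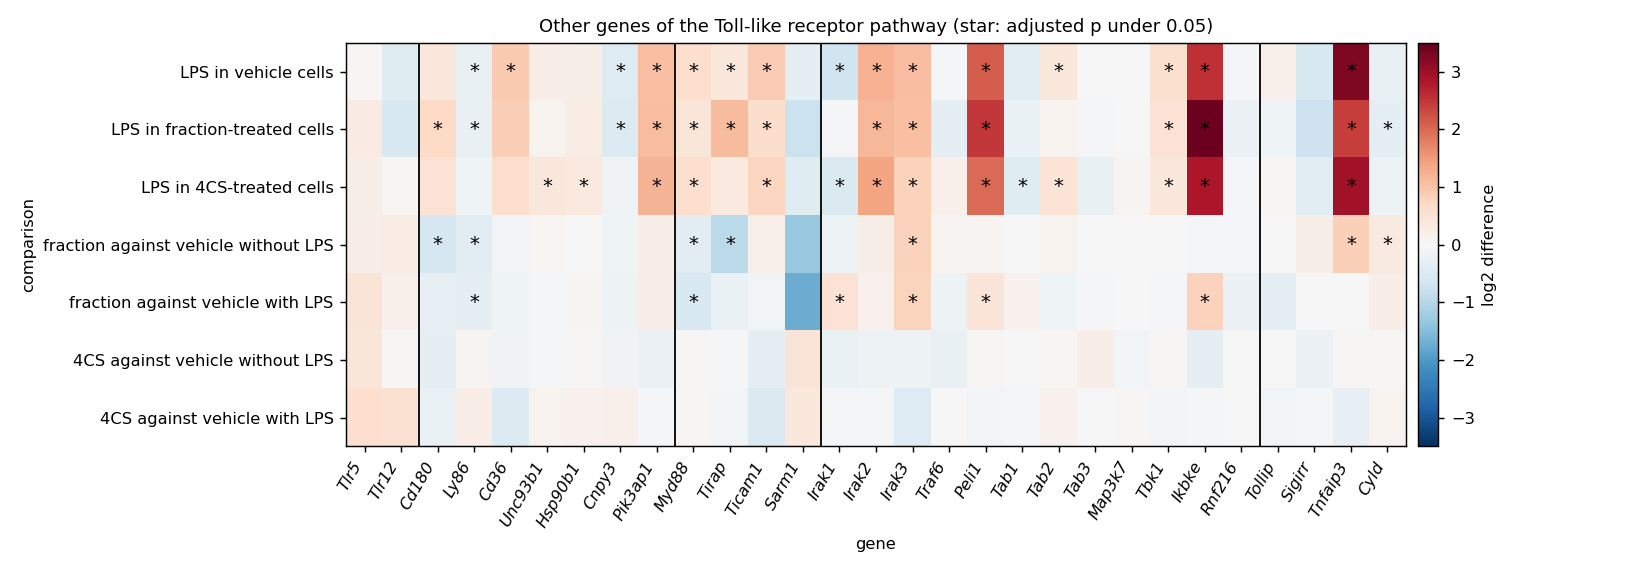
Log2 difference (colour) of the 29 other tested genes of the pathway, grouped by role, in 7 comparisons. Stars mark an adjusted p under 0.05: 15 of the 29 are marked for LPS in vehicle cells and none for 4CS against vehicle.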

How the data were processed

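The authors deposited linear signal intensities of 45101 probe sets on 18 arrays. They came from MAS5, per the submitters' processing notes, in a version not given in the sources used here. Raw scans and detection calls were not used here. Control probe sets (64) were left out, intensities under 1 were set to 1, and log2 was taken. Probe sets with 1 gene symbol were kept where 3 or more of 18 arrays reached their own median, and the brightest stood for each of 11547 genes. Symbols came from the platform annotation and were updated by Entrez ID. Intensities carry no depth, so the number of arrays limits the precision.

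All tested genes were fitted in 1 model of the 6 groups by limma 3.58.1 (R 4.3.3), with 12 residual degrees of freedom, moderated variances that follow the mean signal, 11 contrasts, two-sided p-values and Benjamini-Hochberg adjustment over all 11547 genes, called under 0.05. The fit was also run on simulated data with independent noise on each array and changes added to vehicle LPS cells alone. Such data cannot show how it behaves where arrays of the same number share variation. The members, the pathway and marker lists and the motifs were chosen with earlier results of these data known. From the pathway list the text names the 3 largest called rises and falls in each contrast, with Myd88, Ticam1, Tirap, Irak3 and Cd180 throughout. Not every one so chosen is given in every contrast, and other called genes of that list are named where a small count is spelled out, as is Tlr5 with Tlr12. Replicate numbers were not treated as pairs, since the labels give them no shared source. The data do hold a weak structure by number, in correlations of deviations from the group means. Pairs of arrays with the same number correlated at 0.02 to 0.17, 9 of 45 over 0.1. Pairs with different numbers lay at -0.13 to 0.05, 0 of 90 over 0.1. A replicate block was therefore run as an alternative.

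Alternatives were an offset of 32 before log2, quantile normalization, a replicate block, centring on array medians, low signals set to the array median, no filter, a 75th percentile filter, every probe set, the mean of probe sets, no eBayes trend, the 6 arrays numbered 1 left out, and each array left out in turn.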

Additional observations from a re-analysis of the deposited data

Results flagged for a closer look

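The effect of LPS on Tlr4 differed between fraction-treated and vehicle cells by the interaction test, at -0.64 on the log2 scale (± 0.15, adjusted p = 0.032 by limma). On the brightest Tlr4 probe set, every value with LPS lay below every value without it in both treatments. Groups were likewise apart for 41.5% of all tested genes in vehicle cells and for 49.1% under the fraction. The means went from 1624 to 898 under the fraction and from 715 to 614 in vehicle cells. The difference in vehicle cells did not pass by itself (adjusted p = 0.14). The interaction call was lost in 12 of 29 alternatives. Tlr4 probe sets 1418163_at and 1442827_at did not pass the interaction (adjusted p = 0.29 and 0.86). For both of these, arrays with and without LPS overlapped in vehicle cells but not under the fraction. The effect of LPS on the adapter gene Tirap differed in the same test, in the opposite direction, at 0.72 (± 0.18, adjusted p = 0.044). Tirap was higher with LPS in both treatments, from 604 to 1303 under the fraction and from 1171 to 1519 in vehicle cells. Among single genes the alternatives covered the members alone, so the Tirap call was not checked under them.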

How the results depend on the processing

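No member result changed direction while called. Of 1980 results with 1 array left out, 1921 stayed on their side of the threshold, 48 lost and 11 gained a call. The number of members called for the fraction without LPS, 2, became 4 with a replicate block and 4 without the 6 arrays numbered 1, and 2 to 4 with 1 array left out. That for the interaction of fraction and LPS, 1, became 2 with quantile normalization, 2 without the arrays numbered 1, 0 with the mean of probe sets, 0 without the eBayes trend, and 0 to 1 with 1 array left out. Leaving out 1 array gave 4 to 6 members for LPS in vehicle cells, 6 to 9 in fraction-treated and 5 to 7 in 4CS-treated cells. The cause of the shifts in the number of members called was not tested. Where arrays were left out, the part of their own values and that of the fewer arrays cannot be told apart. With the replicate block, 4 of 110 member results gained and 0 lost a call, and 18 of 18 arrays correlated best with an array of their own number. This is a hint from the data, not from the labels.

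Over all genes, the 7 comparisons with LPS or with the fraction had over 1.5 times as many calls when every probe set was tested, for example 5814 in place of 3680 for LPS in vehicle cells. That setting counts 21553 probe sets in place of 11547 genes. The interaction of fraction and LPS had 247 calls, 467 with the replicate block, 125 without the eBayes trend, and as few as 123 with 1 array left out. For 4CS against vehicle with LPS 0 genes became 63 without the arrays numbered 1 and 191 without vehicle LPS array 1, and 1 or 2 under 4 other settings. Without LPS 0 became 5 without the arrays numbered 1, 3 without 4CS array 1 and 1 without the filter. The interaction of 4CS and LPS became 2, 1 and 10 without the arrays numbered 1, 4CS array 1 or vehicle LPS array 1. Tlr6 and Tlr9 were not tested under the 75th percentile filter.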
